A study of Mus musculus with 2 samples.

Results

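The solute carriers (SLC) are the membrane proteins that move sugars, amino acids, nucleosides, metal ions, vitamins and other small molecules across the plasma membrane and the membranes of organelles. The genes described here are those whose mouse symbol is Slc followed by a digit and which had at least 500 unique molecular identifiers (UMIs, each marking 1 captured RNA molecule) summed over every barcode of both libraries. That rule took 125 genes out of 373 Slc symbols and 27998 listed genes; 68 Slc symbols had 0 UMIs and 180 had between 1 and 499. The least abundant genes inside the limit were Slc35a5 with 512 UMIs, Slc25a44 with 511 and Slc16a9 with 509, and among those just outside it were Slc35d2 with 499 and Slc39a9 with 483. The genes were chosen by their summed UMIs, which are given only as a description. By symbol the list also takes in 2 scaffolds and 2 genes named after a neighbour or partner of a carrier. All 125 are counted as carriers below.

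In the central nervous system the carriers are divided between the cells of the vessel wall and the cells of the tissue. Endothelial cells of the blood-brain and blood-spinal cord barriers have no open route between cells for polar nutrients, so glucose, amino acids, lactate and vitamins reach the tissue through carriers in their membranes. Microglia, the resident macrophages, are known for a fructose transporter and for carriers of endosomes and lysosomes that clear peptides, nucleosides and metals from digested material. Mitochondrial carriers, the Slc25 family, pass nucleotides, phosphate and metabolites through the inner mitochondrial membrane in nearly every cell.

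Cells were taken from the spinal cord of mice on the C57BL/6J background that carried Cx3cr1-CreERT2-YFP::flxRunx1, in which Runx1 is floxed and Cx3cr1, the fractalkine receptor gene of the monocyte and microglia lineage, drives a tamoxifen-dependent Cre recombinase and yellow fluorescent protein (YFP). The group labelled wild type received vehicle, and the group labelled Runx1 knock-out received 1 mg of tamoxifen per day in 5 daily injections. Tissue was taken 4 weeks after the first injection, digested for 30 min in 2 mg/ml collagenase held at 37 °C and sorted for YFP, and each group gave 1 single-cell 3′ library. The sources used here do not give the age or number of the animals. The knock-out, the tamoxifen, the animals and the library cannot be told apart, and no test between the groups is possible; all intervals below are 95% intervals that cover counting error only.

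Promoter sequences introduce the 3 patterns of the carriers that the values below describe: a vessel-side carrier, a microglial carrier and a carrier that met the rule of neither side. Each is the 250 bases before the RefSeq transcription start on GRCm38.p6, read 5′ to 3′ on the strand of the gene. Capitals mark matches to the motif for which that sequence is shown, searched on both strands. TATAA was in 21.1% of vessel-side promoters, beside 23.5% of all promoters. GAGGAA was in 23.1% of microglial-side promoters, beside 23.1% of all. TATAA and GAGGAA therefore do not mark the side for which they are shown.
Slc22a8, an organic anion transporter, chr19:8592932-8593181, plus strand, with 2 overlapping matches of TATAA and its reverse complement TTATA in capitals: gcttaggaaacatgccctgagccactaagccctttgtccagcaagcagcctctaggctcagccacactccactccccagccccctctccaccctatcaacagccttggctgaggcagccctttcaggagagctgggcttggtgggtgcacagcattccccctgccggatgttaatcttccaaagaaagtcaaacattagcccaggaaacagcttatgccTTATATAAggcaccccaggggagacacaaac
Slc11a1, a divalent metal transporter of the phagosome, chr1:74374953-74375202, plus strand, with the purine-rich GAGGAA in capitals: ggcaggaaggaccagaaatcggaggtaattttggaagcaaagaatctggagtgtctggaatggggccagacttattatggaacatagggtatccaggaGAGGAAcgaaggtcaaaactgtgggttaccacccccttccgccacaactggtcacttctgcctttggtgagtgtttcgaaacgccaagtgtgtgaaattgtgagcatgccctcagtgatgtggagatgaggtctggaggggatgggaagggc
Slc3a2, the heavy chain that several amino acid exchangers need to reach the membrane, chr19:8713898-8714147, minus strand, with CCGGAAG in capitals: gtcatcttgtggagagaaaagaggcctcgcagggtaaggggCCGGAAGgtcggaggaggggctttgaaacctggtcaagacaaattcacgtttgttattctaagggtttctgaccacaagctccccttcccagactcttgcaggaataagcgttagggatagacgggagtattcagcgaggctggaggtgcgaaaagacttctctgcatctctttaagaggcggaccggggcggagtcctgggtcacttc

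The wild-type library held 4582 barcodes and 37446978 UMIs, and the library labelled knock-out held 2604 barcodes and 13075939 UMIs. The medians over all barcodes were 6376 and 3715.5 UMIs, and 9 barcodes occurred in both. Clusters were made without any Slc gene and named from markers: microglia-like (2186 wild-type cells and 1353 cells of the library labelled knock-out), endothelial-like (1633 and 835), mural-like, that is pericytes and smooth muscle (194 and 138), and erythroid-like (55 and 75), with 457 and 156 cells unnamed. The microglia-like cells of the libraries fell in different clusters (cluster 0 for the wild type, cluster 2 for the library labelled knock-out), as did most endothelial-like cells (clusters 1 and 3); endothelial-like cluster 7 held cells of both. Endothelial, mural and erythroid cells are not the cells that a Cx3cr1 reporter marks, so the sort did not yield microglia alone. Runx1 itself stood at 92.6 counts per 1000000 UMIs of the class (CPM) in wild-type microglia-like cells and 181 CPM in those of the library labelled knock-out; reads are 3′ tags that need not cover the deleted exons, so the value does not check the label.

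Classes also held marker RNA of other classes. The 9 endothelial markers summed to 15955 CPM in endothelial-like cells of the wild type and to 17281 CPM in those of the library labelled knock-out, and in microglia-like cells to 5637 and 1836 CPM. The 12 microglia markers summed to 24932 and 29059 CPM in microglia-like cells, and to 8917 and 3660 CPM in endothelial-like cells. No marker of either list was at 0 in the other class. In mural-like and erythroid-like cells the endothelial markers summed to 11694 and 11276 CPM for the wild type and to 11631 and 10975 CPM in the library labelled knock-out. Single endothelial markers had between 0.505 and 0.877 times their endothelial-like level in these classes. Erythroid markers, mostly haemoglobin, summed to 254633 and 323417 CPM in erythroid-like cells, which lowers the CPM of every other gene there. These marker levels are set beside each result they move with.

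The carriers made up 0.881% of all UMIs of the wild type and 0.882% of those of the library labelled knock-out. Their share was highest in endothelial-like cells (1.09% and 1.22%) and lowest in microglia-like cells (0.714% and 0.654%), with mural-like cells (0.932% and 0.993%) and erythroid-like cells (0.813% and 0.807%) between. Levels are CPM, the UMIs of a gene scaled to the UMIs of all genes in the class, and 3′ tags need no correction for transcript length, although capture can differ between genes. A carrier's median level was 26.2 CPM in wild-type microglia-like cells and 23.3 CPM in wild-type endothelial-like cells. The most abundant were Slc3a2 at 579 CPM in wild-type microglia-like cells and the scaffold Slc9a3r2 at 997 CPM in wild-type endothelial-like cells.

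Under the rule that a class holds a carrier when its CPM there is at least 2 times that in each of the other 3 classes in both libraries, microglia-like cells held 9 carriers of 125 (7.2%, against 5.43% of the 8017 genes with at least 500 UMIs). Mural-like cells held 2 (1.6%, against 1.23%), erythroid-like cells 0 (background 0.15%) and endothelial-like cells 0, where only 3 genes of all 8017 (0.0374%) met the rule. The other 114 carriers were shared by this rule. Since mural-like and erythroid-like barcodes carried most of the endothelial marker level, the carriers were also compared between microglia-like and endothelial-like cells alone, a comparison added after the data were seen. At 2 times in both libraries, 17 carriers (13.6%, background 9.14%) lay on the microglial side, 25 (20%, background 13.2%) on the vessel side and 83 (66.4%, background 77.6%) on neither.

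**Figure D1:**
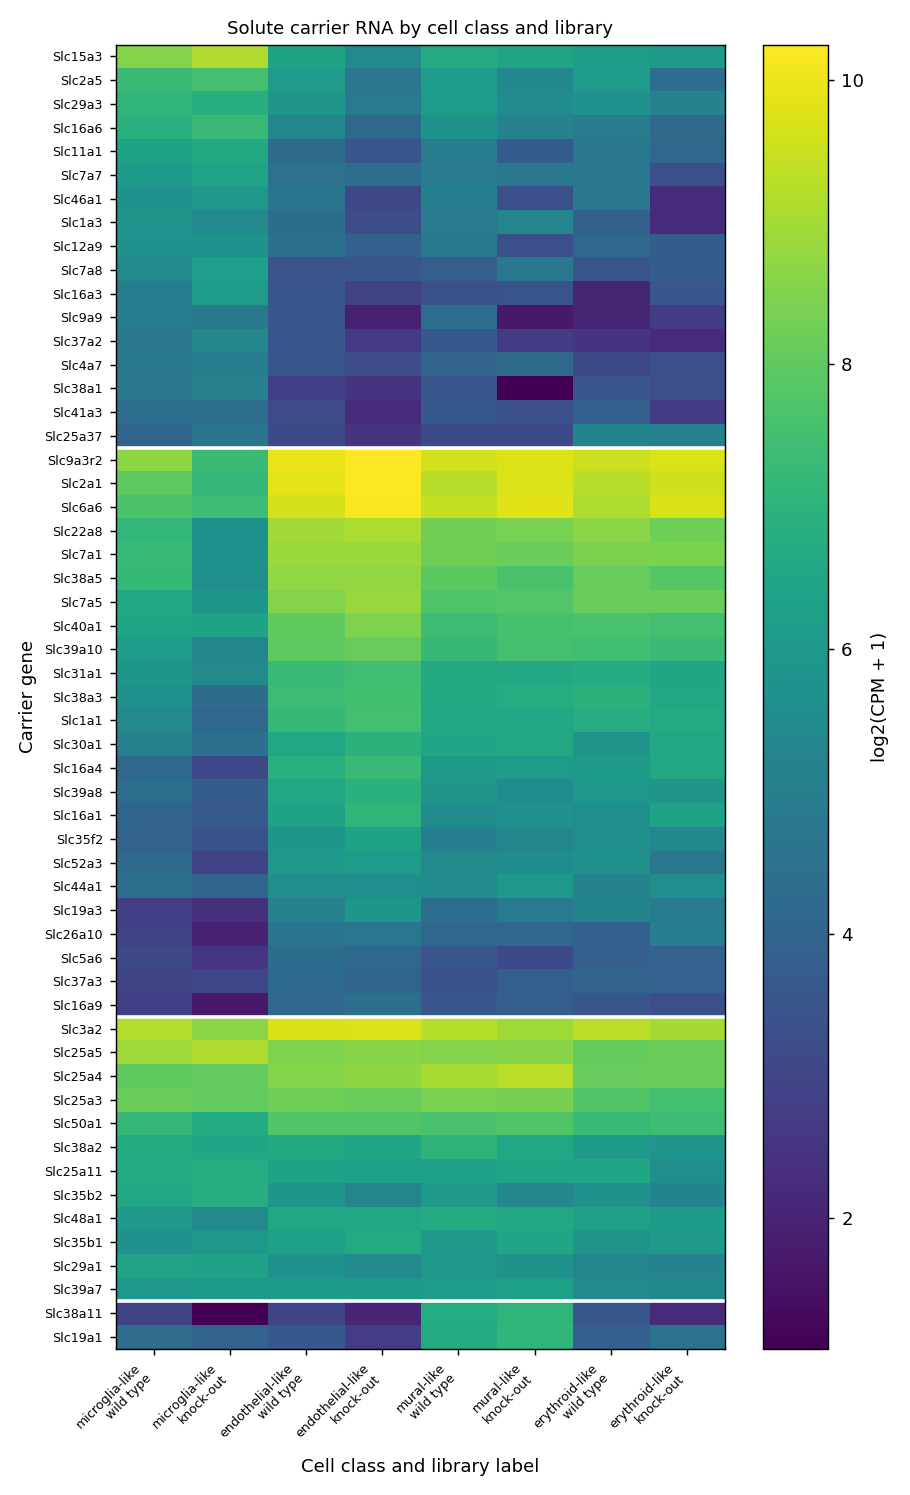
Each cell shows log2(CPM + 1) of a carrier (rows) in a class and library (columns); the blocks from top to bottom are the 17 microglial-side carriers, 24 vessel-side carriers, the 12 most abundant carriers on neither side and the 2 held by mural-like cells. Vessel-side carriers are bright in endothelial-like, mural-like and erythroid-like columns, and microglial-side carriers in the microglia-like columns.

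**Figure D2:**
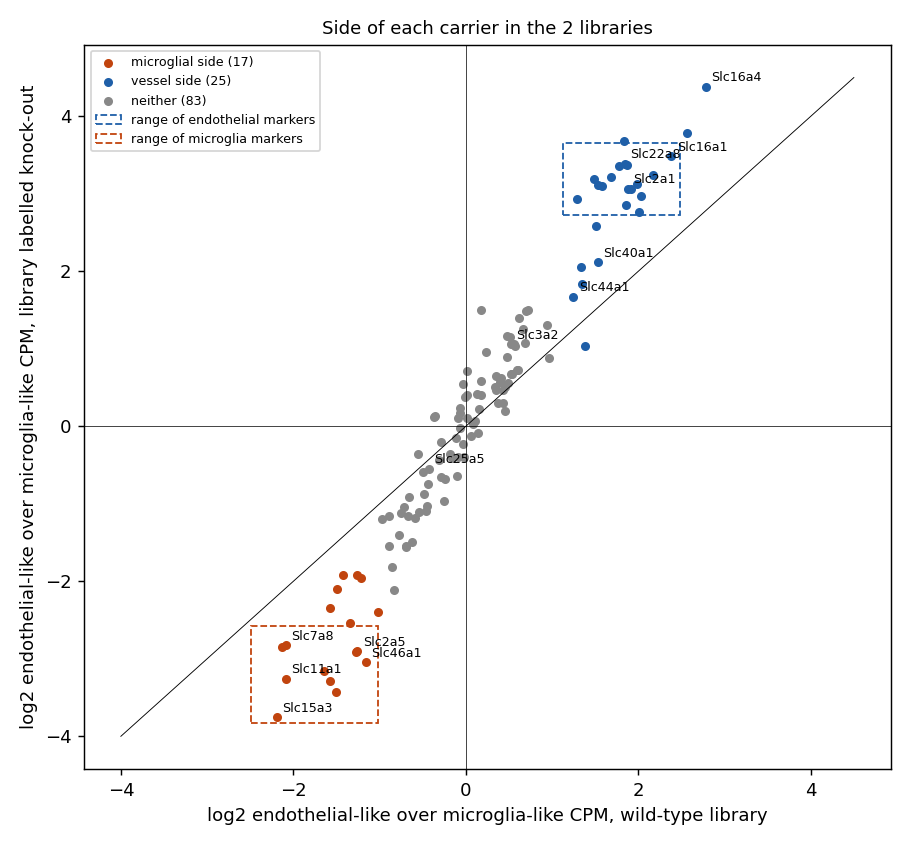
Points are the 125 carriers, by the log2 ratio of CPM in endothelial-like over microglia-like cells in wild-type cells (x axis) and in the library labelled knock-out (y axis); dashed boxes span the same ratio over the endothelial and microglia markers and the diagonal marks equal ratios. The 17 microglial-side points all lie below the diagonal, and 24 of the 25 vessel-side points lie above it.

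The microglial side was led by Slc15a3, a proton-coupled peptide and histidine transporter of endosomes and lysosomes (chr19:10839727-10859362, plus strand, GRCm38). In microglia-like cells its level was 368 CPM (359 to 378) for the wild type and 564 CPM (545 to 583) for the library labelled knock-out, against 80.8 CPM (75.8 to 86.1) and 41.7 CPM (35.7 to 48.5) in endothelial-like cells. Mural-like cells had 104 and 84.9 CPM and erythroid-like cells 73 and 63.1 CPM, so both microglia-like values lay above every other class. After thinning each cell to 1500 UMIs, a UMI of Slc15a3 was found in 39.8% of wild-type microglia-like cells and 50.2% of those of the library labelled knock-out, beside 12.1% and 6.11% of endothelial-like cells; without thinning the shares were 78.9% and 75.2%, and 41.1% and 15.8%. Median depths before thinning were 5526 and 3466 UMIs in microglia-like cells and 5938 and 3597 in endothelial-like cells.

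Fructose and glucose-phosphate carriers of the microglial side were Slc2a5 and Slc37a2. Slc2a5, the fructose transporter GLUT5 and a known microglial gene (chr4:150119283-150144169, plus strand), had 161 and 184 CPM in the microglia-like class of the wild-type and labelled knock-out libraries, and 67.4 and 24.6 CPM in endothelial-like cells. Slc37a2, a sugar-phosphate exchanger of the endoplasmic reticulum, had 25.6 and 39.4 CPM in microglia-like cells and 10.6 and 5.22 CPM in endothelial-like cells. Both were also higher in microglia-like than in mural-like and erythroid-like cells at 2 times or more in both libraries.

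Of the 19 carriers of amino acids and neurotransmitters, 4 were on the microglial side, 6 on the vessel side and 9 on neither. The microglial ones were Slc7a7 and Slc7a8, light chains that pair with Slc3a2, the glutamine carrier Slc38a1 and the glutamate transporter Slc1a3, better known from astrocytes. Slc7a7 had 62.7 and 86.4 CPM in microglia-like cells, compared with 22.3 and 20.1 CPM in endothelial-like cells. Slc7a8 had 41.7 and 75.6 CPM against 9.83 and 10.7 CPM. Slc1a3 had 56.2 and 43 CPM in microglia-like cells, lower in the library labelled knock-out, and had 18.8 and 8.45 CPM in endothelial-like cells, and Slc38a1 had 25.3 and 32.3 CPM against 5.8 and 4.47 CPM. The few ependymal-like cells, outside the 4 classes, had more Slc1a3, with 90.4 and 169 CPM from 21 and 32 UMIs.

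Slc29a3, a nucleoside transporter of lysosomes, was also on the microglial side and had 134 and 113 CPM in microglia-like cells, compared with 57.8 and 29.1 CPM in endothelial-like cells. Slc11a1, whose promoter is shown above, had 81.6 and 99.9 CPM against 19.2 and 10.4 CPM. The proton-coupled folate transporter Slc46a1 had 54.1 and 61.6 CPM against 24.3 and 7.45 CPM, and Slc9a9, a sodium-proton exchanger of endosomes, 31.8 and 26.7 CPM against 10.7 and 2.73 CPM. The other members of this side were Slc16a6 and Slc16a3 of the monocarboxylate family, Slc12a9, the bicarbonate cotransporter Slc4a7, Slc41a3 of a magnesium transporter family, and Slc25a37.

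Slc25a37, mitoferrin, brings iron into mitochondria and is known from haem synthesis in red cell precursors. It had 36.5 CPM (23.4 to 54.3, from 24 UMIs) in wild-type erythroid-like cells and 32.5 CPM (19.2 to 51.3, from 18 UMIs) in the library labelled knock-out. Microglia-like cells had 15.5 and 23.5 CPM, and endothelial-like cells 7.65 and 4.47 CPM. Erythroid-like cells thus had the highest level in both libraries, but in the library labelled knock-out their interval overlapped that of microglia-like cells (19.8 to 27.6), and the 2-times rule was not met. Slc4a1, the anion exchanger of red cells, had 6 UMIs over both libraries and did not meet the limit for the members.

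On the microglial side the ratio of microglia-like to endothelial-like CPM ran from 2.03 (Slc25a37) to 4.56 (Slc15a3) in the wild-type library, with a median of 2.82. In the library labelled knock-out it ran from 3.78 (Slc4a7) to 13.5 (Slc15a3), with a median of 7.21, and it was higher than in the wild-type library for all 17 carriers. The microglia markers themselves had between 0.177 and 0.492 times their microglia-like level in wild-type endothelial-like cells, and between 0.0707 and 0.167 times in the library labelled knock-out. In the wild-type library 16 of the 17 carriers lay within that marker range and 1, Slc25a37, above it. In the library labelled knock-out 10 lay within it and 7 lay above it, namely Slc12a9, Slc41a3, Slc29a3, Slc4a7, Slc7a7, Slc25a37 and Slc1a3.

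The vessel side was led in level by Slc9a3r2 and Slc2a1. Slc9a3r2 shares the symbol but is a PDZ scaffold that binds carriers and receptors, not a carrier; it had 997 and 1214 CPM in endothelial-like cells and 407 and 159 CPM in microglia-like cells. Slc2a1, the glucose transporter GLUT1 of the blood-brain barrier (chr4:119108711-119137983, plus strand), had 927 CPM (910 to 945) in wild-type endothelial-like cells and 1197 CPM (1164 to 1232) for the label knock-out. Microglia-like cells had 252 CPM (244 to 260) and 143 CPM (134 to 153), so the endothelial-like level was 3.69 times (3.55 to 3.82) and 8.38 times (7.80 to 9.01) higher. Mural-like cells had 615 and 839 CPM and erythroid-like cells 620 and 739 CPM.

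After thinning to 1500 UMIs, a UMI of Slc2a1 was found in 75.4% of wild-type endothelial-like cells and 80.4% of those of the library labelled knock-out. The same held for 33.1% and 17.8% of microglia-like cells, and without thinning for 97.5% and 95.7% of endothelial-like and 75.3% and 42.9% of microglia-like cells. Slc2a3, the glucose transporter better known from neurons, had only 144 UMIs over both libraries.

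Amino acid carriers of the vessel side cover the main routes across the barrier. Slc7a5, the light chain of the large neutral amino acid transporter LAT1, had 375 and 457 CPM in endothelial-like cells, compared with 91.6 and 58.5 CPM in microglia-like cells. Its partner Slc3a2 lay on neither side: it had 830 and 844 CPM in endothelial-like cells and 579 and 405 CPM in microglia-like cells, where the light chains Slc7a7 and Slc7a8 were higher. Slc7a1, a carrier of arginine and lysine, had 469 and 469 CPM in endothelial-like cells, compared with 158 and 54.4 CPM in microglia-like cells.

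The taurine transporter Slc6a6 had 804 and 1137 CPM in endothelial-like cells, compared with 199 and 168 CPM in microglia-like cells. The glutamine carriers Slc38a5 (432 and 429 CPM) and Slc38a3 (164 and 177 CPM) and the glutamate and cysteine transporter Slc1a1 (149 and 179 CPM) had 149 and 49.7, 50.8 and 19.1, and 40.7 and 17.3 CPM in microglia-like cells, in the same order. All 6 therefore had separate levels in the 2 classes in each library. Slc38a2, which many cell types express, had 99.4 and 89.2 CPM in endothelial-like cells and 104 and 90.6 CPM in microglia-like cells.

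The Slc16 family, whose best-known members carry lactate and pyruvate, was divided between the sides. Slc16a1 (MCT1), Slc16a4 and Slc16a9 were on the vessel side, and Slc16a3 (MCT4) and Slc16a6 on the microglial side. Slc16a1 had 80.6 and 133 CPM in endothelial-like cells, compared with 15.5 and 11.9 CPM in microglia-like cells, whereas Slc16a3 had 10.6 and 6.46 CPM against 30.1 and 69.4 CPM. Slc16a4 had the highest ratio of any carrier, 118 and 156 CPM in endothelial-like against 17.2 and 7.5 CPM in microglia-like cells, or 6.87 times (6.03 to 7.85) and 20.8 times (15.4 to 28.8).

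The accessory protein of the monocarboxylate carriers, Bsg, has another kind of symbol and is on a list of 26 carriers with other symbols and chaperones, of which 25 were in the gene table and 18 had at least 500 UMIs. Bsg had 15574 and 20292 CPM in endothelial-like cells, compared with 5201 and 2699 CPM in microglia-like cells. Of those 18 genes, Bsg and the lipid carrier Mfsd2a (209 and 226 CPM against 64.7 and 21.2 CPM) were on the vessel side, 0 on the microglial side and 16 on neither.

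Among drug and vitamin carriers, Slc22a8, the organic anion transporter OAT3 (chr19:8591254-8611835, plus strand), had 507 CPM (495 to 520) and 554 CPM (531 to 577) in endothelial-like cells. Microglia-like cells had 141 CPM (135 to 147) and 52.8 CPM (47.2 to 58.9), a ratio of 3.59 times (3.42 to 3.77) and 10.5 times (9.33 to 11.8). The thiamine transporter Slc19a3 had 34.4 and 58.1 CPM in endothelial-like cells, compared with 5.83 and 4.24 CPM, and the riboflavin transporter Slc52a3 had 61.3 and 70.3 CPM against 17.9 and 6.84 CPM. Slc5a6, the carrier of biotin and pantothenate, had 19.2 and 16.9 CPM against 7.54 and 4.73 CPM.

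Metals gave 5 vessel-side members, 2 microglial-side members and 11 on neither of 18. Slc40a1, the iron exporter ferroportin, had 254 and 355 CPM in endothelial-like cells, compared with 88.2 and 81.8 CPM in microglia-like cells. The zinc carrier Slc39a10 had 247 and 277 CPM against 68.3 and 38.5 CPM, and the zinc exporter Slc30a1 95.3 and 124 CPM against 33.4 and 20.7 CPM. Slc39a8, a zinc and manganese carrier, had 91.2 and 122 CPM against 20.3 and 12.9 CPM. The copper importer Slc31a1 had 151 and 173 CPM against 60.1 and 41.4 CPM, whereas its relative Slc31a2 lay on neither side, with 61.3 and 66.6 CPM against 45.3 and 54.3 CPM. The remaining vessel-side members were the choline carrier Slc44a1, Slc35f2, Slc26a10 and Slc37a3.

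On the vessel side the ratio of endothelial-like to microglia-like CPM ran from 2.37 (Slc44a1) to 6.87 (Slc16a4) in the wild-type library, with a median of 3.57. In the library labelled knock-out it ran from 2.06 (Slc37a3) to 20.8 (Slc16a4), with a median of 8.61, and it was higher than in the wild-type library for 24 of the 25 carriers. The endothelial markers had between 0.179 and 0.458 times their endothelial-like level in wild-type microglia-like cells and between 0.0793 and 0.151 times in the library labelled knock-out. In the wild-type library 23 of the 25 carriers lay within that marker range and 2 below it. In the library labelled knock-out 16 lay within, 3 below, among them Slc19a3 and Slc16a4, and 6 above: Slc40a1, Slc30a1, Slc44a1, Slc31a1, Slc5a6 and Slc37a3.

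The vessel-side carriers were also compared between clusters of the endothelial-like cells. A cluster led by Ackr1 and Vcam1, genes known from venous endothelium, held 78 wild-type cells and 31 cells of the library labelled knock-out, set here against the other 1555 and 804. Of the 25 carriers, 9 were lower there with an interval excluding equality in both libraries (36%, background 4.99% of 8017 genes) and 2 were higher in both (8%, background 4.58%). These carriers were chosen for their level in the whole endothelial-like class, made mostly of the other cells. The background is over genes of any side and level, so the shares do not show a trait of carriers. The glutamine carrier Slc38a5 was higher, with 737 CPM against 398 CPM in the wild-type library and 765 against 399 CPM in the library labelled knock-out. Slc16a1 was also higher, with 107 against 77.6 CPM and 178 against 130 CPM.

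Among those lower in the Ackr1-led cluster, Slc1a1 had 72.5 against 157 CPM in the wild-type library and 73.5 against 189 CPM in the library labelled knock-out. Slc9a3r2 had 730 against 1026 CPM and 640 against 1264 CPM. Slc22a8 had 388 against 520 CPM and 389 against 568 CPM, and Slc7a5 had 280 against 386 CPM and 346 against 467 CPM. Slc2a1 was lower in the wild-type library (765 against 945 CPM) and had 1194 against 1198 CPM in the library labelled knock-out.

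**Figure D3:**
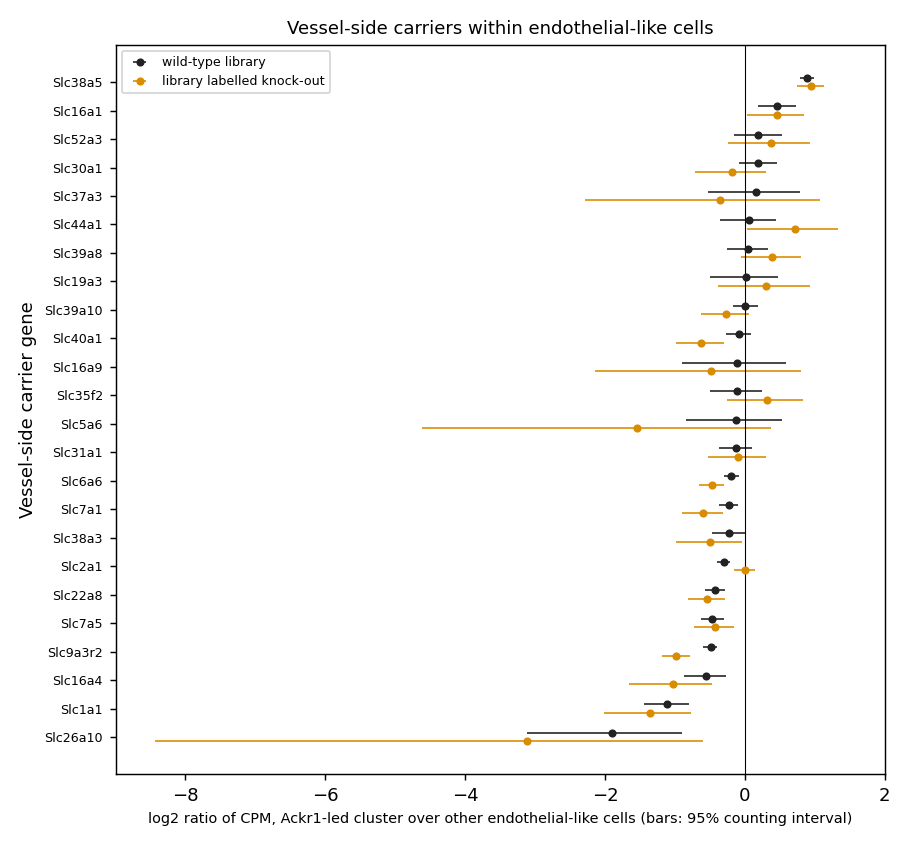
Points give the log2 ratio of CPM in the Ackr1-led cluster over the other endothelial-like cells for 24 vessel-side carriers (rows), in the wild-type library (dark) and the library labelled knock-out (orange), with 95% counting intervals. Slc38a5 lies highest at 0.89 and 0.94; Slc26a10 lies lowest, from 8 and 1 UMIs in that cluster.

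Mural-like cells held Slc38a11 and Slc19a1. Slc38a11, a member of the sodium-coupled amino acid carrier family (chr2:65316430-65364034, minus strand), had 108 CPM (94.3 to 122) and 133 CPM (110 to 159) in mural-like cells, against 7.06 and 3.23 CPM in endothelial-like cells, 6.27 and 1.14 CPM in microglia-like cells and 10.6 and 3.61 CPM in erythroid-like cells. Slc19a1, the reduced folate carrier (chr10:77032241-77061002, plus strand), had 101 CPM (87.9 to 115) and 137 CPM (114 to 164) against at most 19.3 and 21.6 CPM in any other class. The folate carriers were thus divided: Slc46a1 was on the microglial side and Slc19a1 in mural-like cells.

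Within the mural-like cells, a sub-cluster led by the smooth muscle genes Tagln and Acta2 (34 and 17 cells) had the highest level of both genes. Slc38a11 stood there at 292 and 454 CPM, from 64 and 31 UMIs, against 76.1 and 71.4 CPM in the sub-cluster led by the pericyte genes Kcnj8 and Abcc9 (49 and 52 cells). Slc19a1 stood at 205 and 264 CPM, from 45 and 18 UMIs, against 122 and 137 CPM. A larger sub-cluster led by Gkn3 and Tagln (59 and 42 cells) had 103 and 136 CPM of Slc19a1, not above the pericyte-led one. Slc38a11 had 132 and 168 CPM there. In a sub-cluster led by the fibroblast gene Dcn (12 and 10 cells), Slc38a11 had 10.4 and 22.7 CPM from 2 and 2 UMIs. Slc6a20a and Slc30a10, with 277 and 146 UMIs over both libraries, did not meet the limit for the members.

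Slc25a4, the adenine nucleotide carrier of muscle and heart, was highest in mural-like cells among the 4 classes without meeting the 2-times rule. It had 526 and 631 CPM there, against 371 and 419 CPM in endothelial-like cells and 257 and 262 CPM in microglia-like cells. The sub-cluster led by Tagln and Acta2 had 972 and 1260 CPM of it, and the few oligodendrocyte-like cells, outside the 4 classes, had 624 and 1336 CPM from 83 and 40 UMIs. Ependymal-like cells, also outside them, had 495 and 744 CPM. Its close relative Slc25a5 was highest in microglia-like cells among the same 3 classes, with 479 and 570 CPM there, 356 and 390 CPM in endothelial-like cells and 377 and 394 CPM in mural-like cells. Reads of such near-identical genes and their pseudogenes can be split or lost in counting.

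Of the 23 mitochondrial carriers, 22 lay on neither side, and of the 15 members of the Slc35 family, which bring nucleotide sugars into the Golgi apparatus and endoplasmic reticulum, 14, where 77.6% of all genes did. The phosphate carrier Slc25a3 had 292 and 262 CPM in microglia-like cells, 295 and 283 CPM in endothelial-like cells and 337 and 332 CPM in mural-like cells. The sugar carrier Slc50a1 had 144 and 106, 215 and 217, and 195 and 217 CPM in the same order. The scaffold Slc9a3r1 had 30.3 and 29.7 CPM in microglia-like cells and 29.7 and 25.3 CPM in endothelial-like cells, and the iron importer Slc11a2 had 12.4 and 13.5 CPM and 13.3 and 14.2 CPM. In the wild-type library all 83 such carriers were within 2 times between endothelial-like and microglia-like cells, with ratios from 0.511 to 1.95. In the library labelled knock-out 55 were, and 28 passed 2 times there alone, 12 toward endothelial-like cells and 16 toward microglia-like cells. Among them were Slc3a2 at 2.08 times toward endothelial-like cells and Slc35c2, of the Slc35 family, at 4.34 times toward microglia-like cells. The share of all genes that did so was not counted, so the 28 do not show a trait of carriers. In microglia-like cells the endothelial markers had 0.179 to 0.458 times their endothelial-like level in the wild-type library. In the library labelled knock-out they had 0.0793 to 0.151 times. The part of this marker RNA in the count was not tested.

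The promoters of 102 of the 125 carriers were in the RefSeq table, 13 of the microglial side, 19 of the vessel side and 70 of neither. CCGGAAG or its reverse complement was in 14 of the 70 (20%), as in the Slc3a2 promoter shown above, in 1 of the 13 and in 0 of the 19, beside 7.05% of all 27025 promoters. GAGGAA was in 3 of the 13, 6 of the 19 and 16 of the 70, beside 23.1% of all, and TATAA in 2, 4 and 6, beside 23.5% of all. The median number of CpG dinucleotides was 7 on the microglial side, 12 on the vessel side and 14.5 on neither, beside 6 over all promoters. The shares over all promoters cover genes of any level, and none was taken over the genes with at least 500 UMIs. CCGGAAG is therefore not shown to mark the carriers on neither side. These matches describe the letters in these windows only.

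Between the libraries, 79 carriers had at least 20 CPM in microglia-like cells in 1 library or both. Of these, 1 was at least 2-fold higher in the library labelled knock-out with an interval excluding equality (background 1.79% of 5757 genes) and 7 were at least 2-fold lower (8.86%, background 5.44%). At any fold, intervals lay above equality for 27 carriers (34.2%, background 29.6%) and below it for 29 (36.7%, background 36.1%). The median log2 ratio was 0.03, beside -0.04 over all genes.

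The carrier at least 2-fold higher was Slc16a3, the lactate exporter MCT4 (chr11:120948480-120960868, plus strand). It went from 30.1 CPM (27.4 to 32.9) to 69.4 CPM (63 to 76.3) in microglia-like cells, a log2 ratio of 1.21 (1.01 to 1.40). With cells thinned to 1500 UMIs, 4.16% of microglia-like cells of the wild type and 9.61% of those of the library labelled knock-out had a UMI of it, beside 1.29% and 0.838% of endothelial-like cells; unthinned shares were 17.9% and 23.9%, and 7.29% and 3.11%. Among the next highest log2 ratios were those of Slc39a1, a zinc importer (0.94, from 27.6 to 53 CPM), Slc23a2, an ascorbate transporter (0.88, from 13.4 to 24.6 CPM), and Slc7a8 (0.86, 0.68 to 1.03). Slc25a25 and Slc35c2 were both at 0.74. Slc39a1 was also higher in endothelial-like cells (0.68) and mural-like cells (0.69).

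The 7 carriers at least 2-fold lower in microglia-like cells all belonged to the vessel side. Their count was 1 after free RNA, taken to have the composition of the library, was subtracted, with levels under 5 CPM put at 5 CPM. No interval was required for that count. Among the 7 carriers Slc38a5 was at -1.59 (-1.76 to -1.42), Slc7a1 at -1.53, Slc22a8 at -1.42, Slc38a3 at -1.41, Slc9a3r2 at -1.36 and Slc1a1 at -1.24. All 16 vessel-side carriers measured in these cells had ratios below 0, with a median of -0.82 and a range from -1.59 to -0.11. The 9 endothelial markers in the same cells were all lower too, from -1.80 to -0.42, and their sum was at -1.62; the part of this marker RNA in the carrier ratios was not tested. In endothelial-like cells the carriers just named had log2 ratios between -0.01 and 0.28. Of all 5757 genes in microglia-like cells, 3079 were below 0.

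The microglial-side carriers in microglia-like cells had a median log2 ratio of 0.29, with 13 of 17 above 0 and intervals above equality for 11 and below it for 2, Slc29a3 (-0.24) and Slc1a3 (-0.39). Slc15a3 was at 0.61 (0.55 to 0.68), Slc37a2 at 0.62 (0.39 to 0.86), Slc7a7 at 0.46, Slc16a6 at 0.38, Slc38a1 at 0.35, Slc11a1 at 0.29 and Slc2a5 at 0.19. With free RNA subtracted, Slc38a1 was at -0.012, Slc11a1 at -0.082 and Slc2a5 at -0.068. The 12 microglia markers in the same cells ran from -0.39 to 0.87, with 9 above 0, and their sum was at 0.22. Of the 17 carriers, 16 had ratios within that range and Slc16a3 lay above it. Of all 5757 genes in these cells, 2678 were above 0. The sides were set from levels in the same classes and libraries.

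**Figure D4:**
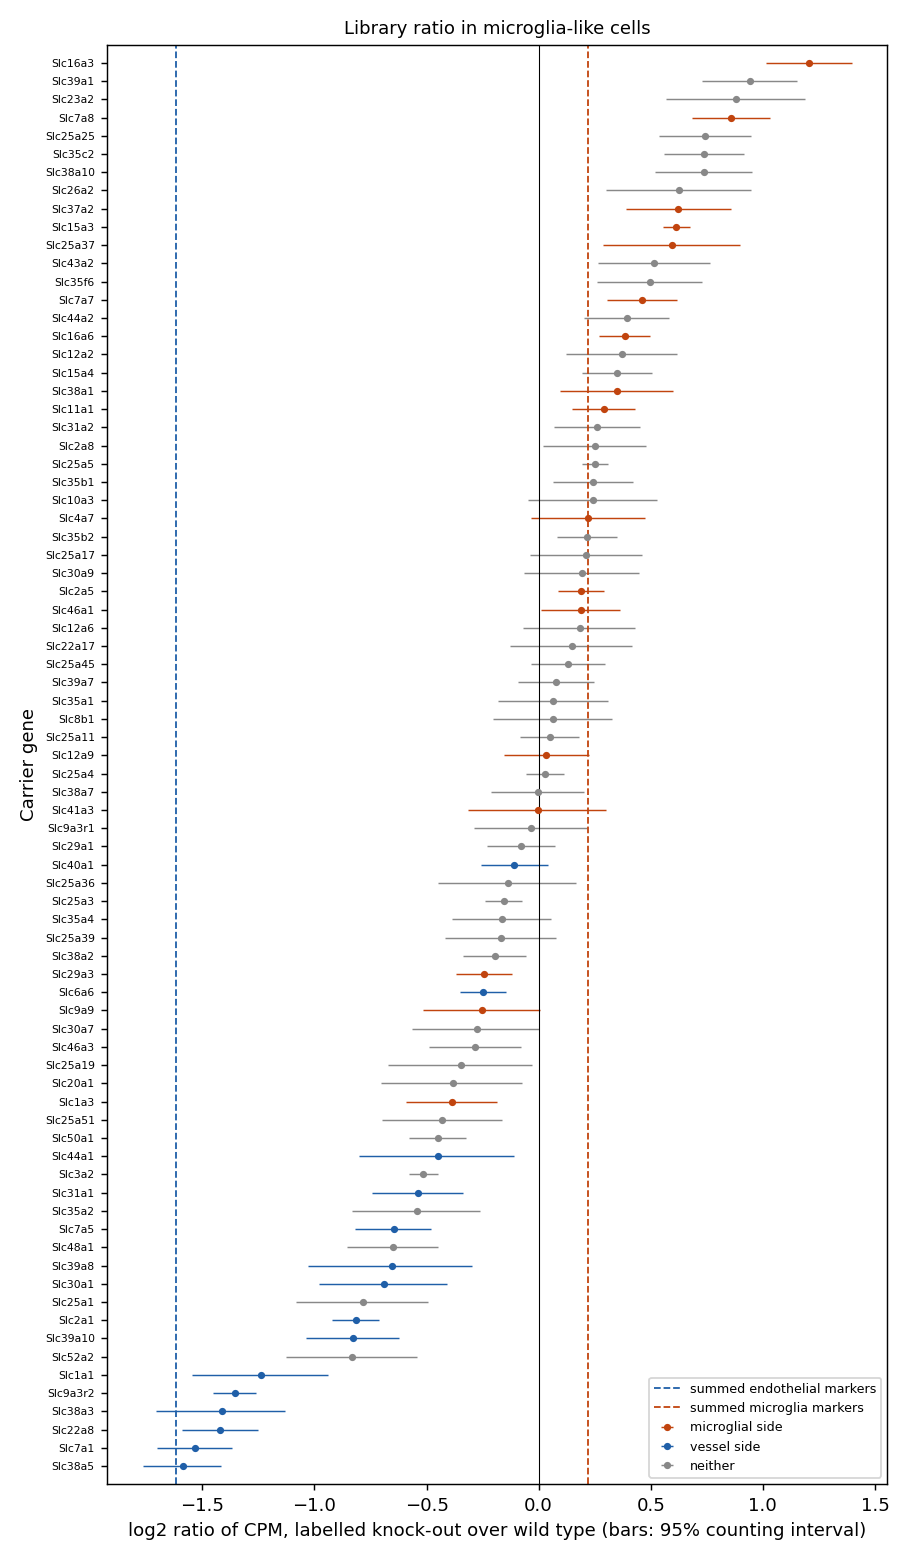
Points give the log2 ratio of CPM in microglia-like cells, library labelled knock-out over wild type, for 78 carriers measured there (rows), with 95% counting intervals; colours mark the side and dashed lines the summed markers (endothelial -1.62, microglia 0.22). All 15 vessel-side carriers plotted lie left of 0 and 13 of the 17 microglial-side carriers lie right of it.

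In endothelial-like cells 75 carriers were measured, of which 0 were at least 2-fold higher in the library labelled knock-out (background 0.684% of 6289 genes) and 3 at least 2-fold lower (4%, background 2.83%). At any fold 25 intervals lay above equality (33.3%, background 33.1%) and 13 below (17.3%, background 19%). The 3 lower ones were Slc46a1 at -1.70 (-2.30 to -1.16), Slc2a5 at -1.45 (-1.77 to -1.15) and Slc16a6 at -1.13 (-1.52 to -0.77), all of the microglial side. The count was 0 with a finer clustering (Leiden resolution 1 in place of 0.5), with each library clustered on its own and with free RNA subtracted. In the first of these Slc16a6 was at 0.062 and in the second at 0.089. The other low ratios were those of Slc29a3 (-0.99), Slc15a3 (-0.95) and the mitochondrial carrier Slc25a45 (-0.83). Slc15a3 was at 0.49 at Leiden resolution 1 and at 0.49 with each library clustered on its own. Under these clusterings the endothelial-like class took in a cluster of the library labelled knock-out with 31.6% and 32.2% of high doublet scores. At Leiden resolution 1, clusters led by Gkn3 (165 and 4 cells) and by Dcn and Ackr1 (96 and 43) were unnamed, outside this class. With each library clustered on its own, so was a wild-type cluster led by Gkn3 (294 cells). So were clusters of the library labelled knock-out led by Igfbp3 (73 cells) and by Dcn and Ackr1 (50 cells). The part of these clusters in the changed values was not tested. In the main endothelial-like class all 7 microglial-side carriers measured were below 0, with a median of -0.99. The 12 microglia markers in these cells were all below 0, from -1.78 to -0.46, and the part of that marker RNA was not tested. Of all 6289 genes in this class, 2441 were below 0.

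The 23 vessel-side carriers measured in endothelial-like cells had a median log2 ratio of 0.28, with 20 above 0 and 16 intervals above equality, beside a median of 0.09 over all genes there. The highest were the thiamine transporter Slc19a3 at 0.76 (0.52 to 0.99), from 34.4 to 58.1 CPM, and Slc16a1 at 0.73 (0.57 to 0.88), from 80.6 to 133 CPM. Slc6a6 was at 0.50, Slc40a1 at 0.48, Slc16a4 at 0.41, Slc2a1 at 0.37 (0.32 to 0.42) and Slc7a5 at 0.28, while Slc7a1 (0.00) and Slc38a5 (-0.01) had intervals that spanned equality. The zinc carrier Slc30a5, on neither side, was at 0.72, from 12.7 to 20.9 CPM. The 9 endothelial markers in these cells ran from -0.05 to 0.50, with 8 above 0, and their sum was at 0.12. Of all 6289 genes in these cells, 3848 were above 0 and 2079 had intervals above equality. The sides were set from levels in these same classes and libraries.

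**Figure D5:**
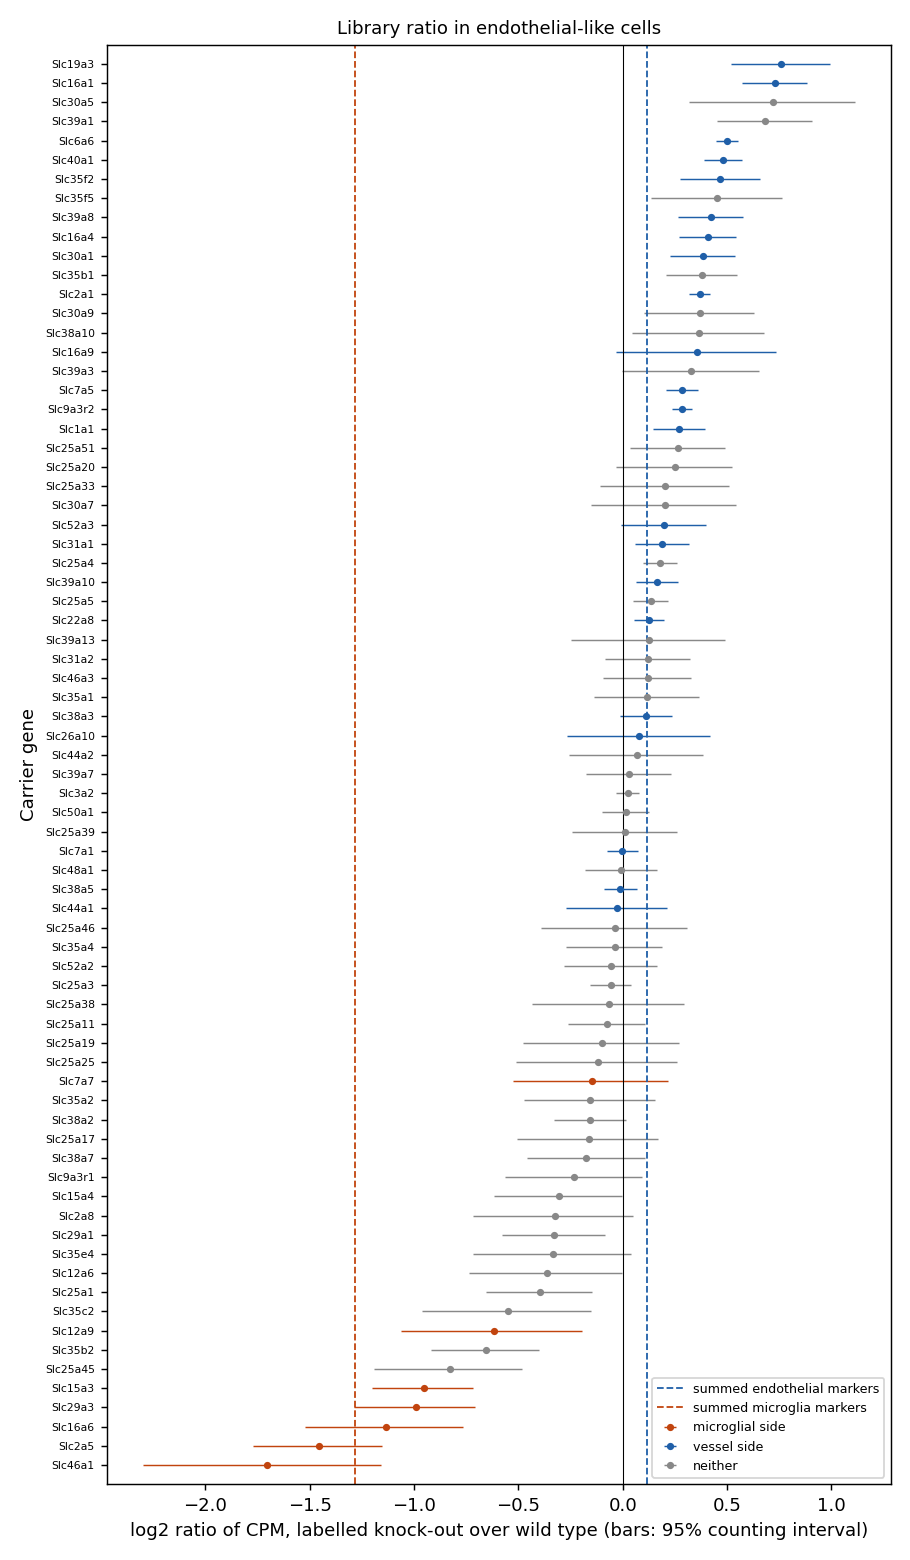
Points give the log2 ratio of CPM in endothelial-like cells, library labelled knock-out over wild type, for 74 carriers measured there (rows), with 95% counting intervals; colours mark the side and dashed lines the summed markers (endothelial 0.12, microglia -1.28). All 7 microglial-side carriers lie left of 0 and 19 of the 22 vessel-side carriers plotted lie right of it.

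In mural-like cells, 4 of 86 measured carriers were at least 2-fold higher in the library labelled knock-out (4.65%, background 2.77%) and 3 at least 2-fold lower (3.49%, background 2.55%). At any fold 14 intervals lay above equality (16.3%, background 14.6%) and 11 below (12.8%, background 10.7%). The higher ones were the zinc carrier Slc30a6, from 8.28 to 23.5 CPM (log2 interval 0.52 to 2.50), the peroxisomal carrier Slc25a17 at 1.25 (0.64 to 1.86), Slc23a2 at 1.09 and the chloride cotransporter Slc12a2 at 1.09 (0.55 to 1.63), from 29.9 to 63.7 CPM. The lower ones were Slc46a1 at -1.85, Slc12a9 at -1.58 and Slc11a1 at -1.31, all of the microglial side, from 8 to 11 UMIs in the library labelled knock-out. Microglia markers in mural-like cells summed to 10511 and 5680 CPM, fibroblast markers to 324 and 622 CPM and erythroid markers to 5795 and 17329 CPM; their part was not tested. Slc38a11 (0.30, -0.03 to 0.63) and Slc19a1 (0.45, 0.12 to 0.77) were below 2-fold.

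In erythroid-like cells 0 of 69 measured carriers were at least 2-fold higher (background 2.83%) and 2 at least 2-fold lower (2.9%, background 5.12%). At any fold 5 intervals lay above equality (7.25%, background 6.77%) and 8 below (11.6%, background 12.7%). The 2 at least 2-fold lower were Slc46a1, from 17 and 2 UMIs, at -2.84 (-6.00 to -0.77), and Slc2a5, from 45 and 11 UMIs, at -1.79 (-2.89 to -0.81). Microglia markers in these cells summed to 8364 CPM in the wild-type library and 4032 CPM in the library labelled knock-out, and their part was not tested. The highest ratios with an interval above equality were those of Slc16a1 (0.74, from 48.6 to 81.1 CPM) and Slc30a1 (0.71, from 56.2 to 92 CPM), both vessel-side carriers. With 55 and 75 cells, these are the least precise of the 4 classes.

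By chemical family the counts were set beside the shares of all genes with an interval above or below equality, 29.6% and 36.1% in microglia-like cells and 33.1% and 19% in endothelial-like cells. In microglia-like cells the 15 amino acid carriers measured had 5 intervals above equality and 9 below, with a median of -0.25, and the 12 metal carriers 3 above and 4 below. The 13 mitochondrial carriers had 3 above and 4 below, with a median of 0.03, and the 7 Slc35 members 4 above and 1 below. In endothelial-like cells 8 of 13 metal carriers had intervals above equality and 0 below, with a median of 0.33, and 4 of 11 amino acid carriers above and 0 below.

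The genes whose pattern over the 4 classes in both libraries was most like that of a carrier were sought for the first carrier of each class that held one. For Slc15a3 the closest was P2ry13, a purinergic receptor gene of microglia, with a Pearson r of 0.998 over 8 points, followed by Rcbtb2 and Pfkfb3. For Slc38a11 it was Mustn1, with an r of 0.994, followed by Higd1b and Map3k7cl. The 8 points share 2 libraries and P2ry13 and the mural-like cluster's genes also shaped the classes, so these values only describe likeness.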

How the data were processed

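The files the authors deposited are filtered matrices of unnormalized UMI counts, 1 per library, per the file headers and the values. STAR, Cell Ranger 2.0.1, Seurat 2.1.0 and the builds mm10 and GRCm38.p5 are named in the submitters' processing notes without role or order, and do not say how barcodes were filtered. Barcodes under 300 genes or over 10% mitochondrial UMIs were dropped, 8 in the library labelled knock-out and 0 in the wild-type library. Main values used no doublet caller. Both libraries were clustered together with scanpy 1.11.5 and leidenalg 0.10.2 on 2000 variable genes without Slc genes, Runx1 and sex-linked genes, 30 principal components, 15 neighbours and resolution 0.5. Clusters were named from fixed marker lists by a scoring set after the clusters were seen; a cluster of 438 and 139 cells, with 33.8% of high doublet scores, stayed unnamed. The members, lists, classes and rules were chosen with earlier results of these data known. UMIs were summed per class and library and divided by the class total (CPM), with exact Poisson intervals for levels, exact Clopper-Pearson intervals for shares and exact conditional binomial intervals for ratios; a count of 0 was put at 3. The calculation was tested on simulated data. Named carriers were those held by a class, the highest and lowest ratios, a fixed set of well-known carriers, those at the limit of 500 UMIs and the most abundant shared ones; Slc31a2, Slc50a1 and the members of either side outside this rule were named after their values were seen. Gene positions are GENCODE M21 on GRCm38 and promoters RefSeq on GRCm38.p6. Alternatives changed the clustering, cells, depth, totals, scaling, limits and a subtraction of free RNA. Counts are over all members, but some genes are not reported here by name, and the plots with gene names leave out the row of a carrier not reported.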

Additional observations from a re-analysis of the deposited data

Results flagged for a closer look

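Slc15a3 moved in opposite directions in the main classes: its log2 ratio, library labelled knock-out over wild type, was 0.61 in microglia-like cells and -0.95 in endothelial-like cells. The endothelial-like value was 0.49 at Leiden resolution 1 and 0.49 with each library clustered on its own, so the opposite directions did not hold under these settings. Under both, a cluster of the library labelled knock-out joined the endothelial-like class (136 cells with 31.6% of high doublet scores, and 143 with 32.2%). Clusters with Gkn3 or with Dcn and Ackr1 among their leading genes were unnamed under both, outside that class. The part of these cells in the change was not tested. With 1 library per group the difference was not tested.

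Small clusters outside the 4 classes had carriers well above any class. Slc38a1, a glutamine carrier, stood at 155 CPM (109 to 215, 36 UMIs) in 17 wild-type ependymal-like cells and at 232 CPM (169 to 312, 44 UMIs) in 26 of the library labelled knock-out, against at most 25.3 and 32.3 CPM in the 4 classes. In oligodendrocyte-like cells (18 and 8 cells), the choline carrier Slc44a1 stood at 241 and 334 CPM against at most 48.1 and 61.5 CPM. Slc22a17 stood there at 271 and 200 CPM against at most 23.7 and 26.2 CPM. Slc48a1, a haem transporter, stood there at 504 and 835 CPM against at most 105 and 91.7 CPM.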

How the results depend on the processing

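No paired analysis was possible because each group had 1 library and the labels give no replicate numbers, so leaving out a replicate was not possible either. Ratios of 75 gene and class pairs were taken under 17 alternatives (15 planned, 2 added after the data were seen), which gave 1229 values. Of these, 1119 stayed within the counting interval of the main value. Another 17 reversed, that is, changed sign where that interval excluded equality. The other 93 lay outside the interval and were not sorted by direction. Depth limits the mural-like and erythroid-like classes most.

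With a limit of 1.5 times between classes, microglia-like cells held 17 carriers and endothelial-like cells 4, and 31 lay on the microglial side; at 3 times microglia-like cells held 1, and 5 and 15 lay on the microglial and vessel sides. At 1.5-fold between the libraries the counts higher and lower in the library labelled knock-out were 11 and 15 in microglia-like, 4 and 8 in endothelial-like, 7 and 8 in mural-like and 2 and 6 in erythroid-like cells. At a minimum of 10 CPM, 11 were lower in microglia-like, 6 in endothelial-like and 6 in mural-like cells and 1 was higher in erythroid-like cells; with no minimum these counts were 14, 8, 6 and 1. At 50 CPM, 2 were higher in mural-like cells and 1, 1 and 0 lower in endothelial-like, erythroid-like and mural-like cells.

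With free RNA subtracted in the make-up of the whole library (54.7% and 21.9% of the UMIs of microglia-like cells, 52.2% and 21.6% of endothelial-like cells), microglia-like cells held 21 carriers and endothelial-like cells 1, and 35 and 38 lay on the microglial and vessel sides. The counts higher and lower were then 4 and 1 in microglia-like and 9 and 8 in erythroid-like cells, with 0 lower in endothelial-like and 5 lower in mural-like cells. Levels under 5 CPM after the subtraction were put at 5 CPM. The log2 ratios in microglia-like cells reversed for Slc11a1 (-0.082), Slc2a5 (-0.068), Slc46a1 (-0.068) and Slc38a1 (-0.012). That of Slc6a6 also changed sign, to 3.26, but its wild-type level lay at the 5 CPM limit, so 3.26 does not measure a rise. In endothelial-like cells the ratios reversed for Slc22a8 (-0.20), Slc39a10 (-0.17), Slc7a5 (-0.074) and Slc1a1 (-0.069). At Leiden resolution 1, where a cluster of 136 cells of the library labelled knock-out with 31.6% of high doublet scores joined the endothelial-like class, 0 carriers were lower in that class, and the ratios reversed for Slc15a3 (0.49), Slc16a6 (0.062), Slc22a8 (-0.11) and Slc35c2 (0.11). With each library clustered on its own, these ratios were 0.49, 0.089, -0.042 and 0.049, 0 carriers were lower in endothelial-like cells and 5 in mural-like cells, and 5 were higher and 5 lower in erythroid-like cells. Under both clusterings, clusters with Gkn3 or with Dcn and Ackr1 among their leading genes were unnamed, outside the endothelial-like class.

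With each cell at equal weight, 3 carriers were higher in microglia-like cells, 1 in endothelial-like cells and 4 in erythroid-like cells, where 8 were lower. Here too 2-fold alone was required, with no interval. Thinned to 1500 UMIs, erythroid-like cells held 1 carrier, 5, 2 and 2 carriers were higher in microglia-like, endothelial-like and mural-like cells, and 6 and 4 were lower in endothelial-like and erythroid-like cells. Centred on the median of all genes, 5 were lower in endothelial-like cells and 1 higher in erythroid-like cells; without mitochondrial, ribosomal and haemoglobin genes in the total, 5 and 3. Without the mural-like sub-cluster with fibroblast markers, 5 were lower in mural-like cells. The cause of the other changes was not tested.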
